A study of Homo sapiens with 19 samples.

Results

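The urea cycle and amino acid catabolism genes described here are 9 genes that liver cells use to dispose of nitrogen and to break down tyrosine and tryptophan: CPS1, OTC, ASS1, ASL, ARG1, NAGS, TAT, TDO2 and HPD. They were taken by name, matched by Ensembl identifier, and all 9 were found among the 32703 identifiers that every library's matrix listed. The measurements are single-cell RNA-seq (10x Genomics 3′ chemistry) of human liver organoids, small 3-dimensional cultures grown from W01, a wild-type human pluripotent stem cell line. Organoids called ULA-HLOs were kept in ultra-low attachment plates, and those called OS-HLOs on an orbital shaker. There were 19 libraries in 9 groups. ULA-HLOs were collected at day 21 (3 libraries) and day 34 (2 libraries), with no treatment. OS-HLOs were collected at day 25, with 2 libraries in each of 7 groups: untreated, TGFB1 (the cytokine TGF-β1) at 10 ng/ml and its control, an agent labelled PA at 500 µM and its control, and an agent labelled OA at 500 µM and its control. TGFB1 and PA were given for the last 5 days after 20 days of culture, whereas for OA the labels give the dose alone. The abbreviations PA and OA are kept as the labels have them, and the content of each control is not stated. Day 34 ULA and day 25 OS organoids were dissociated with 10 further minutes of trypsin. The labels do not say whether replicates were separate cultures or differentiations of this line, so the p-values below measure the spread between these libraries, which may be technical.

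The urea cycle turns ammonia, released when amino acids are broken down, into urea. NAGS makes N-acetylglutamate, the activator that CPS1 needs; CPS1 and OTC then build carbamoyl phosphate and citrulline in the mitochondrion, and ASS1, ASL and ARG1 carry citrulline through argininosuccinate and arginine to urea in the cytosol. TAT and HPD catalyse consecutive early steps of tyrosine breakdown, and TDO2 opens the indole ring of tryptophan at the start of the kynurenine pathway. In adult liver these enzymes are known mainly from hepatocytes, and TDO2 is also known from some stromal and decidual cells.

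Where each gene lies is given in GRCh38 coordinates from GENCODE v44, as whole protein-coding genes, because the deposited values count unique molecular identifiers (UMIs, one per captured RNA molecule) per gene. NAGS (ENSG00000161653) is at chr17:44004622-44009068 on the plus strand, CPS1 (ENSG00000021826) at chr2:210477682-210679107 on the plus strand and OTC (ENSG00000036473) at chrX:38352586-38421446 on the plus strand. ASS1 (ENSG00000130707) is at chr9:130444961-130501274, ASL (ENSG00000126522) at chr7:66075800-66094697 and ARG1 (ENSG00000118520) at chr6:131470832-131584332, all on the plus strand. TAT (ENSG00000198650) is at chr16:71565660-71577092 and HPD (ENSG00000158104) at chr12:121839527-121863596, both on the minus strand, and TDO2 (ENSG00000151790) is at chr4:155854738-155920406 on the plus strand. ASL, CPS1 and OTC each overlap another annotated gene on the same strand, and by name ASS1 has 14 annotated pseudogenes and ASL has 1, so reads that such copies share are an uncertainty of their counts.

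The sequences printed are the 250 bases before the RefSeq start site (GRCh38.p14) of OTC, ASS1, ASL and TDO2, the genes at the centre of the comparisons below; all are on the plus strand, 5′ to 3′. Capitals mark matches to any of 7 short motifs, searched on both strands.
OTC (chrX:38352354-38352603): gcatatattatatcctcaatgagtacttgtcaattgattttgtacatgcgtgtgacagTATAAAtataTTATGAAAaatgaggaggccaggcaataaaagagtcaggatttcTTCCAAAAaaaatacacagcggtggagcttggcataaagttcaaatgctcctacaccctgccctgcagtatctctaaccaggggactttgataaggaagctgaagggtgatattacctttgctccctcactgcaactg
ASS1 (chr9:130444711-130444960): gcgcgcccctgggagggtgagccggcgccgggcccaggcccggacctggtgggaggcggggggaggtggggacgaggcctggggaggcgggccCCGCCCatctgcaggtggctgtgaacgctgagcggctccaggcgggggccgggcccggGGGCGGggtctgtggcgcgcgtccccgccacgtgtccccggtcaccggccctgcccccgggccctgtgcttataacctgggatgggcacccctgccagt
ASL (chr7:66075569-66075818): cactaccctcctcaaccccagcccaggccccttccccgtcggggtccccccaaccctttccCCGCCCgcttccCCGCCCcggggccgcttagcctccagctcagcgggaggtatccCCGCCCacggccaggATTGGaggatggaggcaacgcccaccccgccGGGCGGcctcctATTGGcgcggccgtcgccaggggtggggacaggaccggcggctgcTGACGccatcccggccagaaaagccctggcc
TDO2 (chr4:155903446-155903695): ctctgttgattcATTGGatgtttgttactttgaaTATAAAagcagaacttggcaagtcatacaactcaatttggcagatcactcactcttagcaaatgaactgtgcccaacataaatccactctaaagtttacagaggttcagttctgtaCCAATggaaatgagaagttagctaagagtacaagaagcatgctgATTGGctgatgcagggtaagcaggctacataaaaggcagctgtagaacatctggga
The motifs were the HNF1 core GTTAAT, the HNF4 site CAAAGTCCA, the C/EBP pattern TTNCNNAA, the CRE core TGACG, the TATA box TATAAA, the CCAAT box CCAAT and the GC box GGGCGG. Of 35116 RefSeq windows of the same length, 6.231%, 0.3246%, 33.2%, 21.22%, 10.72%, 32.01% and 42.64% held them, in that order. The OTC window (40.4% G or C) held 2 C/EBP matches and 1 TATA match, and the TDO2 window (40% G or C) held 1 TATA and 3 CCAAT matches. The windows of ASS1 (78.8% G or C) and ASL (74% G or C) were GC-rich against a median of 58% over all windows, and held 2 and 4 GC boxes; the ASL window also held 2 CCAAT boxes and 1 CRE core. A match describes letters only. The RefSeq start used for TDO2 lies inside the longer GENCODE gene span given above, so its window is not upstream of that span's start. The promoter table matched 7 of the 9 genes, all but CPS1 and TAT.

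Barcodes with fewer than 500 genes or with over 20% of UMIs from mitochondrial genes were dropped, which left 120240 of 138053 deposited barcodes, 3089 to 12427 per library. Kept UMIs ran from 6880807 to 91184130 per library and the median from 1310 to 14300 per cell. Levels are in CPM, a gene's UMIs summed over a library's kept cells, or over a class of its cells, and scaled to a common total of all UMIs. Cells with a UMI of EPCAM, an epithelial adhesion gene, and none of the collagen genes COL1A2 and COL3A1 are called EPCAM-positive, and cells with the reverse COL-positive. EPCAM-positive cells were 0.532% to 18.8% of kept cells in ULA libraries and 23.1% to 88.4% in OS libraries, and COL-positive cells 31.7% to 57.1% and 1.18% to 39.3%. Free RNA and doublets can put UMIs of either marker into other cells. Cells with both, which are in neither class, made up 29.8% to 59.7% of ULA cells and 1.93% to 32.0% of OS cells. They were on average 27.02% in untreated, 29.35% in OA control and 5.03% in OA libraries. Across all 171 pairs of libraries, 1 to 32 cell barcodes were shared, at most 0.581% of the smaller library. ALB, a defining hepatocyte gene, ran from 0.039 to 685 CPM. The OA libraries stood apart: 88.4% ± 0.028 (SD, n = 2) of their cells were EPCAM-positive against 27.7% ± 6.56 (n = 2) in their controls.

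Across whole libraries the members fell into a measured set and a scarce set. NAGS, CPS1, ASS1, ASL and TDO2 had UMIs in all 19 libraries, with medians of 1.45, 3.06, 10.4, 44.6 and 34.8 CPM. OTC had UMIs in 18 libraries but a median of 0.268 CPM, TAT in 17 with a median of 0.0454 CPM, HPD in 15 with 85 UMIs in all, and ARG1 in 9 with 74 UMIs in all. Because these are 3′ counts of different transcripts, the figures describe each gene and do not rank one gene against another. In a whole-library sum, fewer cells of a type and less RNA per cell cannot be told apart.

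**Figure D1:**
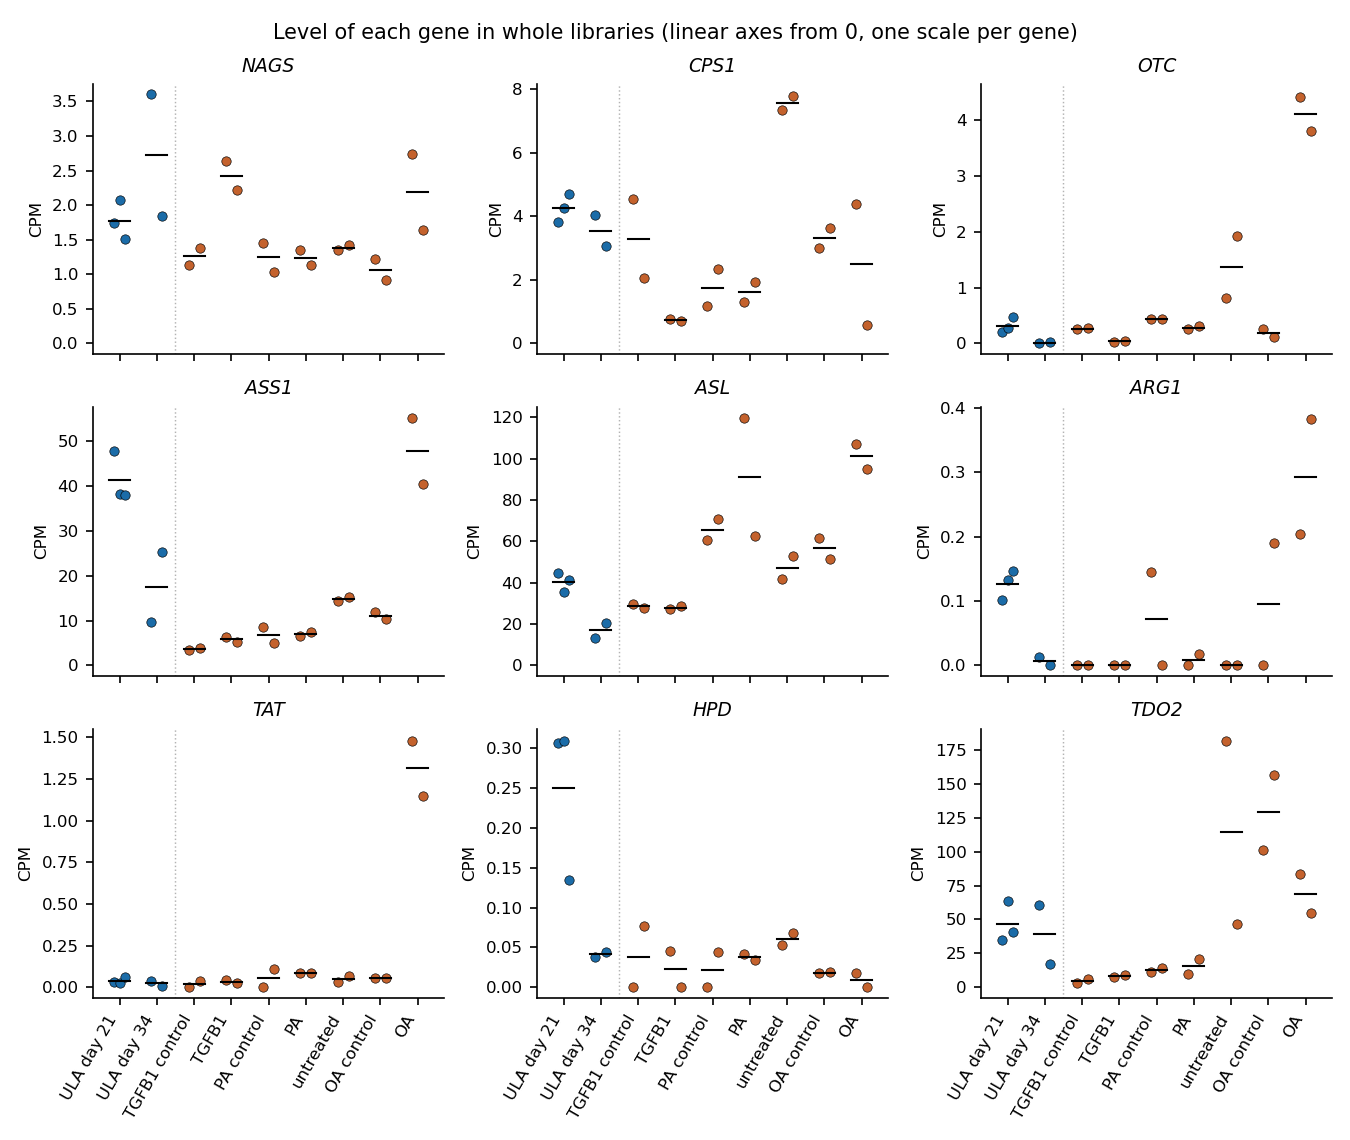
Level of each of the 9 genes in every library, in CPM of UMIs summed over kept cells on linear axes with 1 scale per gene; each point is a library, each line the group mean, with ULA groups left of the dotted line and OS groups right of it. OTC and TAT stand highest in the 2 OA libraries, and TDO2 reaches 182 CPM in untreated replicate 1 and 101 and 157 CPM in the OA controls, while untreated replicate 2 lies lower, at 46.8 CPM.

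NAGS varied least among the members with UMIs in all libraries, from 0.911 to 3.61 CPM. It was highest in day 34 ULA libraries (3.61 and 1.84 CPM), TGFB1 libraries (2.63 and 2.22 CPM) and OA libraries (2.74 and 1.65 CPM), and these groups overlapped. CPS1, the enzyme of the committed first reaction, was highest in untreated OS organoids, at 7.34 and 7.79 CPM, above every other library. TGFB1 libraries lay at the bottom with 0.772 and 0.714 CPM, apart from 0.593 CPM in OA replicate 2, and all groups between these ends overlapped their neighbours.

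OTC was highest in OA libraries, at 4.42 and 3.81 CPM, followed without overlap by untreated OS libraries at 0.814 and 1.92 CPM. PA control, ULA day 21, PA and TGFB1 control libraries then lay between 0.204 and 0.474 CPM, each overlapping the next. OA control libraries had 0.251 and 0.114 CPM. TGFB1 libraries (0.0227 and 0.0510 CPM, from 1 and 2 UMIs) and day 34 ULA libraries (0 and 0.0219 CPM, from 0 and 2 UMIs) were lowest, and counts this small do not order them.

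ASS1 was at 47.9, 38.2 and 37.9 CPM in day 21 ULA libraries and at 55.2 and 40.6 CPM in OA libraries, which overlapped. The TGFB1 controls were lowest, at 3.54 and 3.86 CPM. ASL was at least 13.4 CPM in every library and reached 120 CPM in PA replicate 1, whose partner had 62.5 CPM. OA libraries had 107 and 95.2 CPM of ASL, and day 34 ULA libraries had the lowest levels, 13.4 and 20.6 CPM.

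TDO2 spanned the widest range of the well-measured members, from 3.23 CPM in a TGFB1 control to 182 CPM in untreated replicate 1, whose partner had 46.8 CPM. OA control libraries had 101 and 157 CPM and OA libraries 83.3 and 54.5 CPM. In OS libraries of the TGFB1 and PA experiments TDO2 stayed at or under 20.9 CPM, whereas the lowest level in the untreated, OA control and OA libraries was 46.8 CPM. COL-positive cells were on average 4.24% to 9.05% of kept cells in the groups of the TGFB1 and PA experiments. They were 34.5% in untreated and 36.4% in OA control libraries, but 1.56% in OA libraries. The headers of the TGFB1 and PA matrices give version 3.0.2 with no program name, and those of the other OS matrices Cell Ranger 6.0.2. The part of cell mix or version in this gap was not tested.

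In whole OA libraries 5 of the 7 members that could be tested were higher than in their controls, and none was lower: OTC, TAT, ASS1, NAGS and ASL. Testing used edgeR's quasi-likelihood test on summed counts, with Benjamini-Hochberg adjustment over all genes tested and a threshold of 0.05. In this comparison 43.3% of all genes passed, and 21.7% passed in the higher direction, so a passing member is not unusual by itself. ARG1 and HPD had too few UMIs for the filter that the fit applies to low counts. TAT reached the level of that filter in the OA libraries alone, so it had to differ to be tested at all; its call and p-value are a description, and without it 4 of 6 were higher.

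OTC rose from 0.251 and 0.114 CPM in the controls to 4.42 and 3.81 CPM in OA, a log2 fold change of 4.79 ± 0.52 (SE; adjusted p = 1.62e-05; 4.28 without control replicate 2 and 5.56 without control replicate 1). TAT went from 6 UMIs in the controls (0.0537 and 0.0569 CPM) to 140 UMIs with OA (1.48 and 1.15 CPM), a log2 fold change of 4.84 ± 0.57 (adjusted p = 3.09e-05). No other library held more than 5 TAT UMIs, and the OA libraries held 140 of the 181 TAT UMIs of all libraries.

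ASS1 rose from 11.9 and 10.4 CPM to 55.2 and 40.6 CPM, with a log2 fold change of 2.44 ± 0.28 (adjusted p = 2.46e-05), and the groups did not overlap. ASL, the next enzyme, rose from 61.9 and 51.4 CPM to 107 and 95.2 CPM, by 1.17 ± 0.28 (adjusted p = 0.00425). NAGS rose from 1.22 and 0.911 CPM to 2.74 and 1.65 CPM, by 1.37 ± 0.35 (adjusted p = 0.00711). The ASL call was lost without OA control replicate 2 (adjusted p = 0.0580), and the NAGS call without that library (0.0868) or without OA replicate 1 (0.108).

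CPS1 did not pass: its levels were 4.38 and 0.593 CPM in OA and 2.99 and 3.64 CPM in the controls, with a log2 fold change of -0.06 ± 0.61 (adjusted p = 0.948). The pair of OA libraries thus lay on opposite sides of the controls, and the value depended on which was kept, from -2.15 without replicate 1 (adjusted p = 0.00727, past the threshold) to 0.76 without replicate 2. TDO2 in whole libraries also did not pass, at -0.55 ± 0.49 (adjusted p = 0.396). ARG1 had 31 UMIs in the OA libraries and 10 in the controls, a pooled ratio of 3.16 (95% counting interval 1.51 to 7.24); all 10 control UMIs came from replicate 2. Such intervals cover counting error only. HPD had 1 UMI against 2.

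Marker lists moved along with these members. The hepatocyte list was ALB, AFP, APOA1, APOA2, APOB, APOH, TTR, SERPINA1, FGA, FGB, AHSG and TF. The gut list was CDX2, CDH17, VIL1, LGALS4, FABP1, FABP2, TFF3, PHGR1, LGR5 and KRT20. A sum over a list is weighted toward its most abundant genes, so these sums do not separate cell types. Summed hepatocyte markers were 23252 to 23816 CPM in OA and 9003 to 12489 CPM in the controls, gut epithelial markers 21551 to 26361 against 2375 to 4646 CPM, and mesenchymal markers 313 to 376 against 4169 to 6707 CPM. Of the lists, 8 of 11 tested hepatocyte markers were higher, 7 of 10 gut markers were higher and 1 lower, and 10 of 10 mesenchymal markers were lower. Cell cycle genes were lower in 6 of 6, and of 3 tested endothelial and blood markers 2 were higher and 1 lower. Their part in the whole-library result was not tested, but the same comparison could be made inside EPCAM-positive cells.

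**Figure D2:**
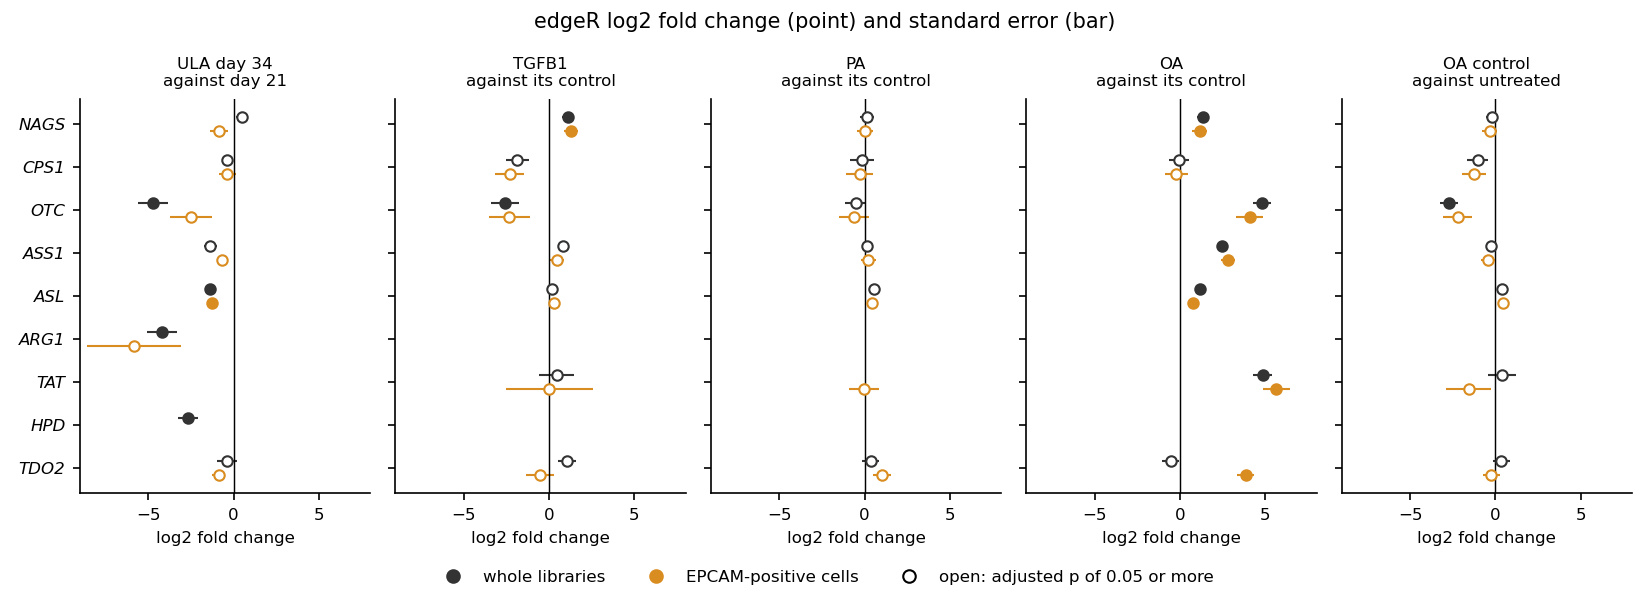
Log2 fold change of each member with its standard error (bars) in the 5 comparisons, for whole libraries and for EPCAM-positive cells; filled symbols passed the adjusted threshold of 0.05 and estimates with a standard error of 3 or more are left out. With OA, OTC, TAT, ASS1, ASL and NAGS lie above 0 on both scales, and TDO2 lies at -0.55 in whole libraries and 3.84 in EPCAM-positive cells.

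Within EPCAM-positive cells, 6 of 7 tested members were higher with OA and none was lower; CPS1 was the exception. In these cells 35.9% of all genes passed and 19.1% passed in the higher direction. TAT again reached the filter's level in the OA libraries alone, and without it 5 of 6 were higher. Those higher were OTC, TAT, ASS1, ASL, NAGS and TDO2. Marker levels in this class also differed between the groups: 7 of 11 tested hepatocyte markers were higher and 1 lower, and 6 of 10 gut markers were higher and 1 lower. Of the mesenchymal markers 5 of 8 were lower and 1 higher, and of the cell cycle genes 4 of 6 were lower and 0 higher. Summed in these cells, hepatocyte markers were 23784 to 24775 CPM with OA and 16562 to 18071 CPM in the controls, gut markers 21934 to 27520 against 3134 to 5870 CPM, and mesenchymal markers 201 to 230 against 977 to 1140 CPM. Their part in the members' rise was not tested. Cells with both markers, which this class leaves out, were on average 5.03% of kept cells with OA and 29.35% in the controls. The part of that difference was not tested either.

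TDO2 in EPCAM-positive cells stood at 8.07 and 2.86 CPM in the controls and at 86.0 and 54.2 CPM with OA, a log2 fold change of 3.84 ± 0.52 (adjusted p = 1.12e-04). ASS1 in the same cells rose from 10.5 and 5.72 CPM to 56.8 and 41.7 CPM, by 2.79 ± 0.41 (adjusted p = 2.18e-04). OTC was at 0.477 and 0 CPM (11 UMIs) in the controls and at 4.61 and 3.89 CPM (421 UMIs) with OA, by 4.08 ± 0.77 (adjusted p = 0.00115). TAT counted 1 control UMI against 134, a pooled ratio of 49.2 (95% counting interval 8.68 to 1958; fitted adjusted p = 1.72e-04).

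ASL and NAGS changed less in EPCAM-positive cells. ASL went from 76.4 and 70.7 CPM to 111 and 97.3 CPM, by 0.73 ± 0.26 (adjusted p = 0.0403), and leaving out any of the 4 libraries ended the call (adjusted p from 0.065 to 0.231). NAGS went from 1.47 and 0.828 CPM to 2.87 and 1.66 CPM, by 1.14 ± 0.42 (adjusted p = 0.0454), and was lost with DESeq2 (0.0585), without OA replicate 1 (0.362) and without control replicate 2 (0.289). CPS1 in these cells was at 2.13 and 5.05 CPM in the controls and 4.49 and 0.492 CPM with OA (-0.21 ± 0.69, adjusted p = 0.842), and without OA replicate 1 it was called lower (-2.58, adjusted p = 0.0110). ARG1 gave 31 UMIs against 1, a ratio of 11.4 (1.90 to 464). In whole libraries the control count of ARG1 was 10. The ASL call was also lost with classes set by the ratio of marker UMIs (0.0613). The calls of OTC, ASS1 and TDO2 held in every alternative run for this comparison, but their sizes moved. TAT also stayed called, which is a description only, since it reached the filter's level with OA alone. With 1 library left out OTC ran from 3.30 to 10.25, TAT from 5.00 to 8.60, TDO2 from 3.27 to 4.97 and ASS1 from 2.38 to 3.46 on the log2 scale, each lowest without control replicate 2 and highest without control replicate 1. The absence of the latter left control cells with no UMI of OTC or TAT.

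Where the TDO2 transcripts lay differed between the groups. In the OA control libraries 84.3% and 82.3% of TDO2 UMIs came from COL-positive cells and 3.30% and 0.461% from EPCAM-positive cells. In OA libraries 95.7% and 92.9% came from EPCAM-positive cells. EPCAM-positive cells were on average 88.4% of kept cells with OA and 27.7% in the controls, and COL-positive cells 1.56% and 36.4%. These shares of UMIs thus depend on the mix of cells as well as on the level in each class. In CPM, COL-positive cells held 454 and 469 CPM in the controls and 98.5 and 367 CPM with OA, the latter from 60 and 38 cells. The difference between the OA effect in EPCAM-positive and in COL-positive cells was tested as an interaction, in which 5.96% of all genes passed: TDO2 differed by 6.69 ± 0.93 on the log2 scale (adjusted p = 0.00364) and ASS1 by 2.94 ± 0.81 (adjusted p = 0.0457). The median of this difference over all genes was 0.757, so both values are to be read against a typical gene above 0. This test had 1 OA library, replicate 1, because replicate 2 fell under the minimum of 50 COL-positive cells. Its errors and p-values thus take their spread from the other groups and hold none between OA libraries. The COL-positive level of TDO2 was 56.2 and 164 times the EPCAM-positive level in the controls, 1.15 times in OA replicate 1 and 6.78 times in OA replicate 2, so the gap was wider in the library left out. The ASS1 call was lost without OA control replicate 2 (0.0547). ASS1 in COL-positive cells was at 14.1 CPM (5 UMIs) in that OA library and at 29.9 CPM (7 UMIs) in the one left out, against 10.9 and 10.2 CPM in the controls. In the OA library left out, EPCAM-positive cells had 1.39 times the COL-positive level of ASS1, against 4.04 times in the one tested.

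Other mesenchymal genes did not move as one in EPCAM-positive cells. In these cells, which by their rule hold no UMI of COL1A2 or COL3A1, COL1A1 was at 5.09 and 5.53 CPM with OA and 30.1 and 41.0 CPM in the controls, and DCN at 0.977 and 0.144 against 1.17 and 1.58 CPM. LUM, another matrix gene, was at 46.4 and 23.2 against 7.29 and 4.67 CPM. COL1A1 and DCN thus lay below their control levels and LUM above them, and how far stray RNA of collagen-expressing cells enters the TDO2 level was not tested.

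Shares of cells were compared after thinning every cell to 1000 UMIs. TDO2 was then detected in 5.81% (95% exact binomial interval 4.95 to 6.76) and 3.70% (3.03 to 4.47) of EPCAM-positive cells with OA. In the controls it was detected in 0.698% (0.361 to 1.22) and in 0 of 708 cells, which allows a share of up to 0.424% with a UMI at this thinned depth, by the limit of 3 cells. Unthinned shares were 16.3% and 15.8% with OA against 5.21% and 3.92%, at median depths of 10340 and 8506 against 8290 and 16080 UMIs. In COL-positive control cells the thinned share was 23.2% and 22.3%, at median depths of 4062 and 11004 UMIs. ASS1 was detected in 4.75% and 3.38% of thinned EPCAM-positive OA cells and in 0.931% and 0.283% of control cells; shallower cells left out numbered 7 to 79 per library in this class.

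**Figure D3:**
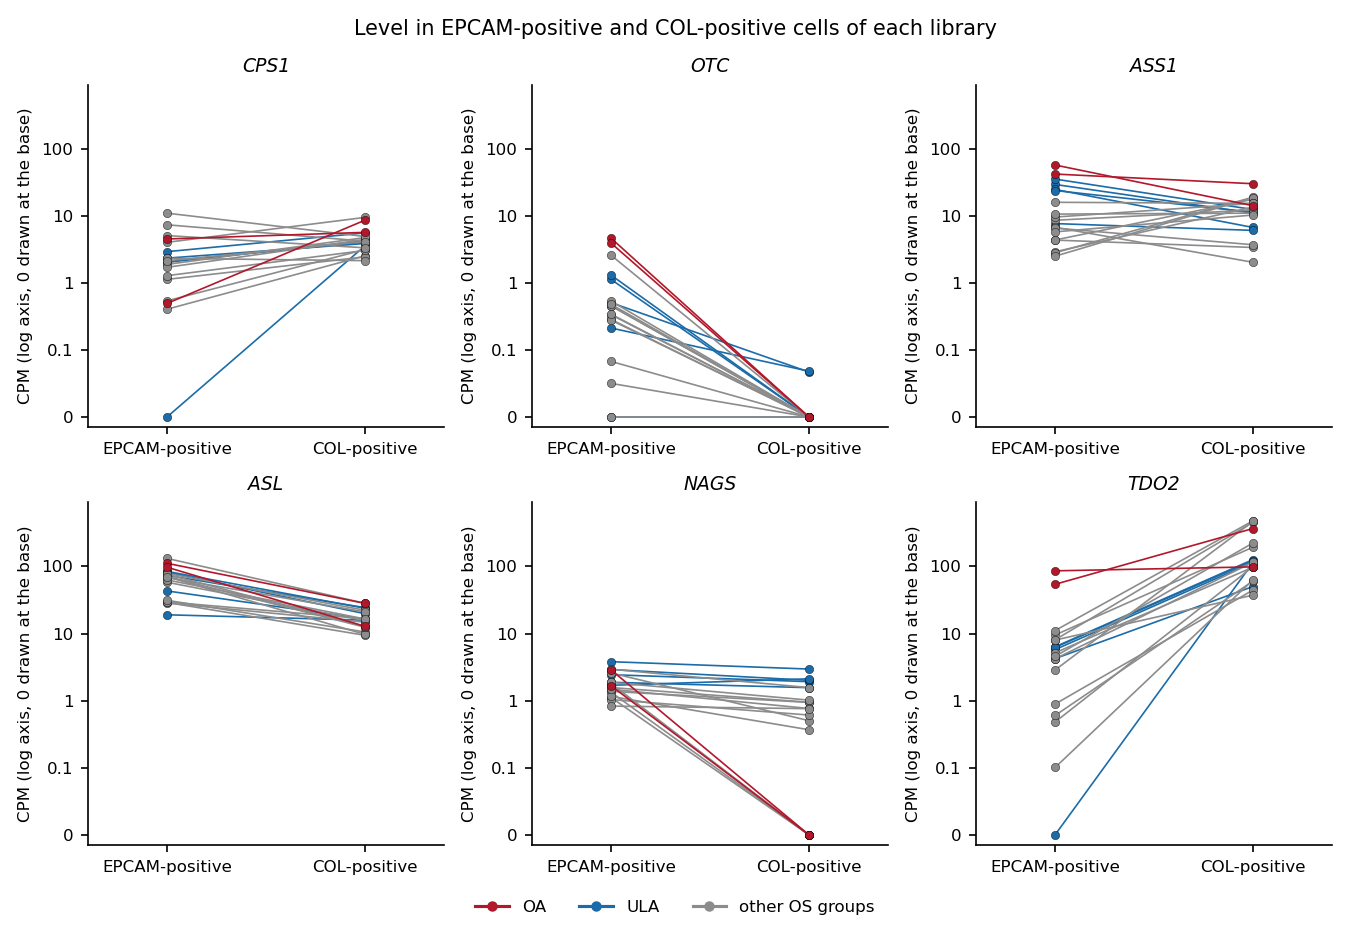
Level of 6 members in EPCAM-positive and in COL-positive cells, in CPM on log axes with zeros at the base; lines join the classes of 1 library, in red for OA, blue for ULA and grey for other OS groups. TDO2 lies higher in COL-positive cells in all 19 libraries, with 86.0 against 98.5 CPM in OA replicate 1 and 54.2 against 367 CPM in OA replicate 2.

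Over the series the class of cell separated the members into groups that favoured one side or the other. The class test took the 17 libraries with at least 50 cells of each class, with library as a block, and 50.6% of all genes passed, so these calls too sit in a high background. Higher in EPCAM-positive cells were ASL, OTC and NAGS, and higher in COL-positive cells were TDO2 and CPS1.

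ASL was higher in EPCAM-positive cells in 19 of 19 libraries, by a median of 3.54-fold over the 18 with more than 3 UMIs in each class (1.20 to 7.23), with a fitted log2 difference of 1.93 ± 0.07 (adjusted p = 6.90e-19). OTC had 592 UMIs in EPCAM-positive cells of all libraries and 2 in COL-positive cells. In the 17 fitted libraries that was 402 against 2, a ratio of 79.1 (95% counting interval 21.8 to 655), and the call (adjusted p = 1.38e-04) was lost under a stricter cell filter or without OA control replicate 1. In 15 of these 17 libraries COL-positive cells had no OTC UMI, and OTC reached the level of the low-count filter in EPCAM-positive cells alone, so that call is a description. TAT had 100 UMIs against 1, a ratio of 39.3 (6.90 to 1569), and ARG1 39 against 0, at least 5.12-fold higher taking the floor of 3 UMIs over the COL-positive cells; neither ratio comes with a usable fitted test. HPD had 22 UMIs against 15, a ratio of 0.577 with an interval of 0.286 to 1.20 that spans no difference. By library HPD was higher in EPCAM-positive cells in 8 and in COL-positive cells in 3. In all but 2 of these libraries each class held at most 3 HPD UMIs, too few to set a direction. Ratios were 1.26 and 1.46 in the 2 libraries with more than 3 UMIs in each class.

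NAGS was higher in EPCAM-positive cells in 18 of 19 libraries, but in only 9 of the 19 did each class hold more than 3 UMIs. In those 9 the ratio had a median of 1.45 and ran from 0.80 to 1.93. Its fitted log2 difference was 1.85 ± 0.46 (adjusted p = 9.76e-04); 4 of the 17 fitted libraries had no NAGS UMI in COL-positive cells, and their part was not tested. The value ran from 0.95 without OA replicate 1 to 2.60 without PA control replicate 2, and UMIs pooled over the fitted libraries gave a ratio of 1.29 (95% counting interval 1.11 to 1.504), against 1.08 (0.946 to 1.23) over all 19. The difference fell to 0.61 under a stricter cell filter (adjusted p = 0.0708). ASS1 took no side: it was higher in EPCAM-positive cells in 11 libraries and in COL-positive cells in 8, with a fitted difference of 0.15 ± 0.17 (adjusted p = 0.579). The ratio of EPCAM-positive to COL-positive levels of ASS1 ran from 0.134 to 4.04 and differed by experiment. It was 2.11 to 3.69 in the ULA libraries that could be compared and 0.134 to 0.247 in TGFB1 and TGFB1 control libraries. UMIs of ASS1 pooled over the fitted libraries gave a ratio of 1.41 (95% counting interval 1.34 to 1.49).

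CPS1 was higher in COL-positive cells in 15 of 19 libraries, but in only 14 of the 19 did each class hold more than 3 UMIs. In those 14 the COL-positive level was a median of 1.94-fold the EPCAM-positive one (0.449 to 6.23). The 4 libraries with the reverse order were all among them. The OA libraries, counted in the 15, held 2 COL-positive UMIs each. The fitted log2 difference was -0.56 ± 0.21 (edgeR adjusted p = 0.0252). The call was lost without PA replicate 2 (adjusted p = 0.0541) or without PA control replicate 2 (0.0819). Untreated libraries were among the exceptions, with 7.30 and 10.9 CPM in EPCAM-positive and 4.16 and 4.88 CPM in COL-positive cells. TDO2 was higher in COL-positive cells in 19 of 19 libraries, by a median of 20.3-fold in 17 of them (1.15 to 206), with a fitted log2 difference of -4.63 ± 0.37 (adjusted p = 4.79e-06). Its highest COL-positive levels were 478 CPM in untreated replicate 1 and 454 and 469 CPM in the OA controls, and its lowest were 37.3 CPM in PA replicate 1 and 44.3 CPM in TGFB1 control replicate 1. The library with the smallest ratio was OA replicate 1.

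ASS1 in day 21 ULA organoids was higher in cells with both markers, at 76.9, 70.5 and 63.1 CPM, than in EPCAM-positive cells (29.2, 35.1 and 24.6 CPM) or COL-positive cells (10.9, 12.3 and 6.67 CPM). These cells gave 67.8% to 77.9% of the ASS1 UMIs of their libraries. The 3 libraries kept that order without overlap. Doublets and free RNA can add cells to the class with both markers, and their part in this level was not tested.

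Between day 21 and day 34, 4 of 8 tested members were lower in whole ULA libraries and none was higher, where 15.8% of all genes passed in either direction. Lower were OTC, ASL, ARG1 and HPD, with no overlap between the ages. Age and the further trypsin step of the day 34 libraries cannot be told apart here. OTC, ARG1 and HPD reached the level of the low-count filter at day 21 alone, so they could be tested only because they were high there; their calls and p-values are descriptions, and of the other 5 members 1, ASL, was lower.

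OTC fell from 0.204, 0.279 and 0.474 CPM (76 UMIs) to 0 and 0.0219 CPM (2 UMIs), a pooled ratio 26.9-fold lower (95% counting interval 7.20 to 226; adjusted p = 0.0125). ARG1 fell from 0.102, 0.132 and 0.146 CPM (30 UMIs) to 1 UMI, 21.3-fold lower (3.53 to 867; adjusted p = 0.0194). HPD fell from 59 to 7 UMIs, 5.97-fold lower (2.72 to 15.5; adjusted p = 0.0249). Fitted log2 values for OTC ran from -3.89 without day 34 replicate 1 to -7.71 without replicate 2, and for ARG1 from -3.28 without day 34 replicate 2 to -6.43 without replicate 1; the larger value in each case came from a day 34 library with no UMI of the gene.

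ASL fell from 44.6, 35.3 and 41.2 CPM to 13.4 and 20.6 CPM, by 1.38 ± 0.23 on the log2 scale (adjusted p = 0.00879). The ASL call was lost without day 21 replicate 1 (edgeR adjusted p = 0.0524), without day 21 replicate 3 (0.0634) and with replicate number as a block (0.138). ASS1 had 47.9, 38.2 and 37.9 CPM at day 21 and 9.65 and 25.4 CPM at day 34, which did not pass (-1.36 ± 0.40, adjusted p = 0.0650). CPS1 (-0.40, adjusted p = 0.314), TDO2 (-0.39, adjusted p = 0.681) and NAGS (0.49, adjusted p = 0.371) did not pass either. TDO2 at day 34 was 60.9 and 17.3 CPM, a spread wider than the whole day 21 range of 34.8 to 63.7 CPM. Without day 21 replicate 1, 2 or 3 the calls numbered 1, 2 and 1, and without either day 34 library they numbered 6.

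Summed hepatocyte markers were 2353 to 2727 CPM at day 21 and 96.1 to 844 CPM at day 34, and gut markers 1416 to 1891 against 13.6 to 117 CPM. Called lower were 2 of 11 tested hepatocyte markers, 8 of 10 gut markers and 4 of 6 cell cycle genes, and 0 of these were higher. The part of these lists in the result was not tested. EPCAM-positive cells were on average 16.3% of kept cells at day 21 and 3.27% at day 34. In these cells, pooled over all ULA libraries, OTC had 56 UMIs at day 21 and 1 at day 34. That was 4.69-fold lower, with a counting interval of 0.808 to 189 that spans no difference. ARG1 had 25 UMIs against 0 and HPD 13 against 0, at a day 34 depth too low to set a fall. The part of the falling share in the whole-library falls was not tested. Inside EPCAM-positive cells, where day 34 replicate 1 was left out because it had 23 such cells, 1 of 7 tested members passed, with 18.7% of all genes passing. That was ASL, at 84.3, 73.5 and 81.7 CPM at day 21 and 43.1 CPM at day 34 (-1.25 ± 0.22, adjusted p = 0.00118). With 1 library at day 34, the spread behind that test comes from day 21 alone; the library left out had 19.02 CPM of ASL, from 5 UMIs. In the same cells 6 of 11 hepatocyte and 7 of 10 gut markers were lower and none higher, and 4 of 8 mesenchymal markers were higher. ASS1 was at 29.2, 35.1 and 24.6 CPM against 23.7 CPM (-0.67, adjusted p = 0.0847).

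With TGFB1, 1 of 7 tested members was lower and 1 higher in whole libraries, beside 22.1% of all genes passing in either direction. OTC fell from 0.253 and 0.268 CPM (18 UMIs) to 0.0227 and 0.0510 CPM (3 UMIs), a pooled ratio 7.33-fold lower (95% counting interval 2.14 to 38.9; adjusted p = 0.0380). NAGS rose from 1.14 and 1.38 CPM to 2.63 and 2.22 CPM, by 1.10 ± 0.36 on the log2 scale (adjusted p = 0.0445). Both calls were lost when any of the 4 libraries was left out, after removal of called doublets and under a stricter cell filter.

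CPS1 was 4.55 and 2.05 CPM in the controls and 0.772 and 0.714 CPM with TGFB1, without overlap, but did not pass (-1.87 ± 0.68, adjusted p = 0.0663); DESeq2 passed it (adjusted p = 0.0167), as did a fit of these groups alone (0.0255). ASS1 was 3.54 and 3.86 CPM against 6.31 and 5.25 CPM (0.82 ± 0.29, adjusted p = 0.0564), and ASL did not separate (29.7 and 27.6 against 27.3 and 28.6 CPM). TDO2 was 3.23 and 5.93 CPM against 7.95 and 9.49 CPM (1.05 ± 0.52, adjusted p = 0.170). Mesenchymal markers summed to 1249 to 2082 CPM in the controls and 6994 to 7716 CPM with TGFB1, and cell cycle genes to 230 to 369 against 23.4 to 23.5 CPM. Of the hepatocyte markers 7 of 11 were lower and 1 higher, although their sum was 2719 to 3988 CPM in the controls and 4570 to 5397 CPM with TGFB1, and 5 of 10 gut markers were lower (687 to 706 against 94.1 to 111 CPM). The part of these lists in the fall of OTC was not tested. In EPCAM-positive cells NAGS was the 1 member of 7 to pass, with 25% of all genes passing, at 1.11 and 1.37 CPM against 2.94 and 2.59 CPM (1.27 ± 0.41, adjusted p = 0.0376). That call was lost without any of the 4 libraries (adjusted p from 0.0606 to 0.183) and after removal of called doublets (0.0576). In those cells 7 of 11 hepatocyte markers were lower and 1 higher, 6 of 10 gut markers and 6 of 6 cell cycle genes were lower, and 3 of 8 mesenchymal markers were higher.

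With PA, 0 of 7 tested members passed in whole libraries or in EPCAM-positive cells with edgeR, 0 of 7 in either setting at an unadjusted p under 0.05, and 0 with DESeq2. Of all genes 0.0465% passed in whole libraries and 0.114% in EPCAM-positive cells, and 2.79% and 2.5% had an unadjusted p under 0.05. ASL had 60.8 and 70.7 CPM in the controls and 120 and 62.5 CPM with PA, a pair that overlapped the controls (log2 fold change 0.53 ± 0.27). OTC had 0.436 and 0.442 CPM in the controls and 0.252 and 0.309 CPM with PA (-0.52 ± 0.60). TDO2 in EPCAM-positive cells had 5.16 and 4.20 CPM against 7.98 and 9.51 CPM, without overlap (1.02 ± 0.53, unadjusted p = 0.0769).

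OA control and untreated organoids differed in 1 of 7 tested members in whole libraries, with 0.444% of all genes passing. OTC fell from 0.814 and 1.92 CPM in untreated libraries to 0.251 and 0.114 CPM in the controls (-2.71 ± 0.51, adjusted p = 0.0440). That call was lost when only these groups were fitted (adjusted p = 0.319), under a stricter cell filter (0.0546), and without untreated replicate 2 or either control. In EPCAM-positive cells 0 of 7 passed with edgeR, 1 of 7 at an unadjusted p under 0.05, where 1.28% of all genes passed and 17.4% had such an unadjusted p. DESeq2 also called none of the members to which it gave an adjusted p in EPCAM-positive cells. It gave OTC no adjusted p in either setting, so OTC could not be called by it. CPS1 was at 7.34 and 7.79 CPM in untreated and 2.99 and 3.64 CPM in control libraries (-1.05 ± 0.60, adjusted p = 0.450). This comparison shares its control libraries with the OA comparison.

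The other 4 comparisons were also tested for a difference between the classes, and no member passed in any with edgeR, or with DESeq2 where it gave an adjusted p. OTC and TAT had too few UMIs in COL-positive cells for a usable error in most of these tests, so what was tested is mainly the other 5 members, and the ULA test held 1 day 34 library. At an unadjusted p under 0.05 the members numbered 1 for ULA age (26.6% of all genes at that p, and 15.3% past the adjusted threshold), 1 for TGFB1 (16.8% and 6.52%), 0 for PA (3.86% and 0.00514%) and 2 for OA control against untreated (7.92% and 0.144%).

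EPCAM-positive cells were then divided by how many of 12 hepatocyte markers they expressed after each cell was thinned to 1000 UMIs. Cells with 6 or more were 28.9% and 18.0% of EPCAM-positive cells with OA, 2.56% and 1.55% in the controls (44 and 11 cells) and 6.35% and 13.0% in untreated libraries. None of the 9 members is among the 12 markers, and the values are descriptions.

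CPS1 was at its highest level in the cells with 6 or more markers in each of the 6 untreated, OA control and OA libraries. In untreated organoids it was 48.97 and 73.8 CPM in cells with 6 or more markers and 1.60 and 0.369 CPM in cells with under 3, and the upper class gave 59.8% and 65.2% of the CPS1 UMIs. In the OA controls the upper class had 20.6 and 76.3 CPM and gave 32.7% and 28.4% of the UMIs. In OA it had 9.98 and 0.743 CPM, below both other groups, from 766 and 502 cells, and gave 76.4% and 33.3%. The OA control values come from the few cells counted above. In TGFB1, PA and their control libraries cells with under 3 markers gave 60% to 91.7% of the CPS1 UMIs of the class. The share of cells with under 3 markers is not set beside these values, so they show no preference of CPS1. Counts were small, with 5 CPS1 UMIs in EPCAM-positive cells of PA control replicate 1 and 12 in those of TGFB1 replicate 2.

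TDO2, ASS1 and OTC followed other patterns. TDO2 in OA was 13.9 and 15.6 CPM under 3 markers, 30.8 and 34.8 CPM at 3 to 5, and 199 and 137 CPM at 6 or more, against 39.9 and 4.02 CPM in control cells with 6 or more. ASS1 in OA went through 33.1 and 18.8, 47.7 and 39.2, to 80.8 and 65.6 CPM, and was above the control of the same class in each (6.31 and 4.58, 13.1 and 6.88, and 41.1 and 28.1 CPM). OTC with OA was at 4.85 and 2.11, 4.24 and 4.24, and 5.05 and 4.27 CPM, near level in replicate 1 and lower under 3 markers in replicate 2. ASL at 6 or more markers was 120 and 110 CPM with OA and 132 and 177 CPM in the controls, so its order between the groups was reversed there. The control values of CPS1, TDO2, ASS1 and ASL at 6 or more markers come from the few cells counted above and have no counting intervals.

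**Figure D4:**
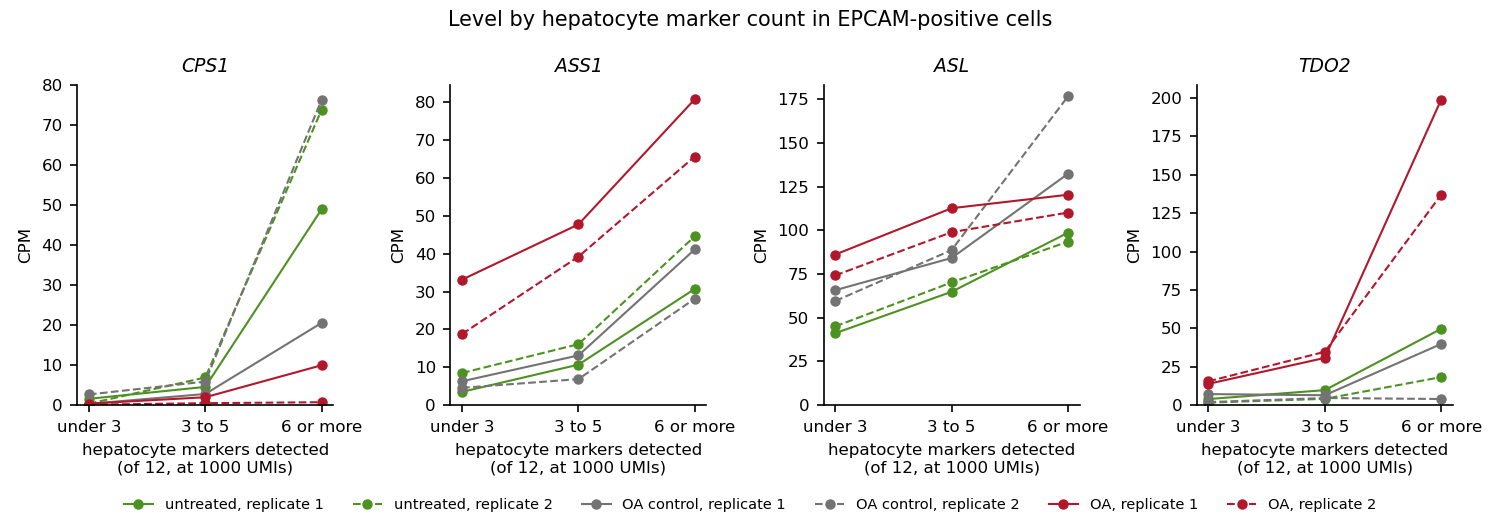
Level of CPS1, ASS1, ASL and TDO2 in EPCAM-positive cells by the number of hepatocyte markers detected (under 3, 3 to 5, 6 or more), in CPM, for OA, OA control and untreated libraries, with 1 line per library. CPS1 at 6 or more markers reaches 73.8 CPM in untreated libraries and lies at 9.98 and 0.743 CPM with OA, and TDO2 reaches 199 CPM with OA. The OA control points at 6 or more markers come from few cells.

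Another 70 genes of nitrogen and amino acid metabolism, in 6 lists, set the members beside their pathways. With OA, 18 of 65 tested were higher (27.7%) and 14 lower (21.5%), beside 21.7% and 21.6% of all genes, with a median log2 fold change of 0.12. ACMSD, a branch enzyme of the kynurenine pathway, rose from 1.14 ± 0.19 to 21.5 ± 3.83 CPM (SD, n = 2 each; adjusted p = 2.26e-05). GPT, which exchanges amino groups between alanine and glutamate, rose from 0.523 ± 0.12 to 7.50 ± 0.30 CPM (adjusted p = 1.21e-04), and AGXT, the alanine-glyoxylate aminotransferase, from 6 to 68 UMIs (adjusted p = 9.99e-04). BHMT, a methionine-forming methyltransferase, had 2 UMIs in the controls and 20 with OA (adjusted p = 0.00314).

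Lower with OA were HPDL, a relative of HPD, from 8.93 ± 2.34 to 1.54 ± 0.29 CPM (adjusted p = 5.20e-04), and AASS, of lysine breakdown, from 7.86 ± 1.57 to 1.86 ± 0.38 CPM (adjusted p = 1.97e-04). CDO1, a cysteine dioxygenase, fell from 6.90 ± 2.21 to 1.74 ± 0.68 CPM (adjusted p = 0.00741) and GLS2, a glutaminase, from 1.18 ± 0.30 to 0.254 ± 0.019 CPM (adjusted p = 0.0108).

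With TGFB1, 4 of 65 were higher and 7 lower, where 10.8% of all genes were higher and 11.3% lower. HGD, homogentisate dioxygenase, fell from 26.3 ± 4.25 to 7.53 ± 0.056 CPM (adjusted p = 0.00353). ACMSD fell from 3.40 ± 0.43 to 0.379 ± 0.15 CPM (adjusted p = 0.00212). Rising were BCAT1, of branched-chain transamination (14.3 ± 0.76 to 36.9 ± 1.82 CPM, adjusted p = 0.00532), ASNS, asparagine synthetase (15.2 ± 0.11 to 27.6 ± 9.26 CPM, adjusted p = 0.00623), and ARG2, the mitochondrial arginase (log2 fold change 1.49 ± 0.30, adjusted p = 0.00324), while ARG1 had no UMI in the TGFB1 or its control libraries. Over all 19 libraries ARG2 ran from 9.74 to 46.3 CPM.

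Between ULA ages, 1 of 59 was higher and 20 lower, with a median log2 fold change of -0.56, where 8.54% of all genes were higher and 7.27% lower and their median was 0.01. CTH, the cystathionine-cleaving enzyme, fell from 21.9 ± 3.44 (SD, n = 3) to 3.94 ± 0.92 CPM (n = 2; adjusted p = 0.00118), and GLDC, of glycine cleavage, from 5.95 ± 0.19 to 0.852 ± 0.097 CPM (adjusted p = 0.00112). HPDL fell from 8.82 ± 1.64 to 1.24 ± 0.26 CPM (adjusted p = 0.00132). Between OA control and untreated 1 of 65 was lower and none higher, where 0.382% of all genes were lower.

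**Figure D5:**
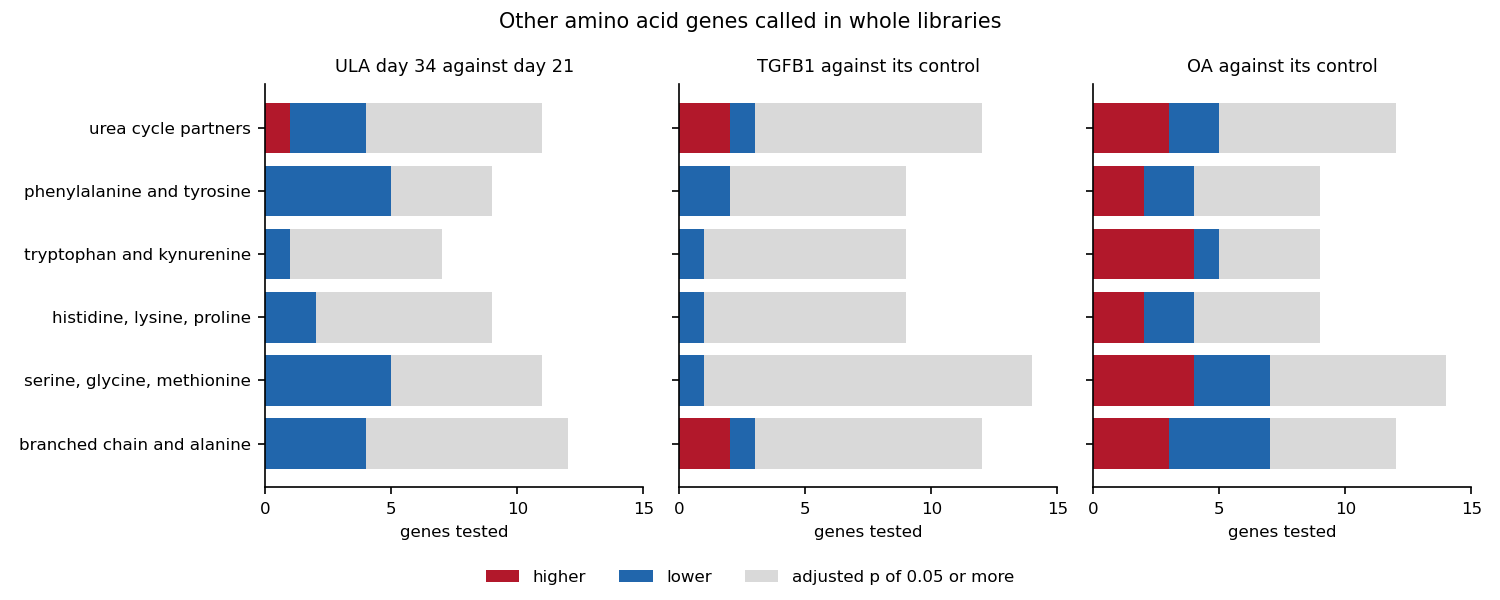
Number of genes tested in each of 6 related pathway lists, divided into those higher (red), lower (blue) and not past an adjusted p of 0.05 (grey) in whole libraries, for ULA age, TGFB1 and OA. With OA the related lists hold calls on both sides, 18 higher and 14 lower of 65 tested, beside 21.7% higher and 21.6% lower over all genes.

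Among themselves the members varied in different ways over the 19 libraries. The Pearson correlation of log2 levels over all pairs ran from -0.421 for ASL with NAGS to 0.878 for OTC with TAT. ARG1 with TAT followed at 0.684 and ASS1 with ARG1 at 0.646, and TAT with HPD was at -0.2245. The OA libraries held 140 of the 181 TAT UMIs, and ARG1 and HPD had 74 and 85 UMIs in all. Coefficients with these genes therefore rest on few libraries or on counts near the floor. These describe 19 libraries that share culture type, experiment, Cell Ranger version and class make-up, and carry no p. Among 8951 genes searched, the level pattern of ASS1 was most like those of ELOVL6 (Pearson r = 0.934), MSMO1 (0.919) and EBP (0.916), that of ASL most like ESPN (0.9501), DGAT1 (0.931) and EPS8L3 (0.930), and that of TDO2 most like LAMA4 (0.879), RBM4 (0.858) and PITX1 (0.850). CPS1 was most like TOMM70 (0.827) and OTC most like IPMK (0.949), whose Spearman correlation with OTC was lower, at 0.714.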

How the data were processed

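Matrices of UMI counts per gene and cell barcode were deposited for each of the 19 libraries. Per the submitters' processing notes they were made with bcl2fastq and Cell Ranger 3.0.2 on GRCh38 and handled with Scanpy; per the file headers, the untreated, OA and OA control matrices name Cell Ranger 6.0.2 and the others 3.0.2 with no program name, so OS experiments were counted with different versions. Groups were tested against each other only within one version, while orders of levels and correlations over libraries span both. No value was normalized by the authors. ULA matrices list 58721 identifiers and OS matrices 32732, so ULA and OS libraries were fitted apart except for the class test, which used the shared identifiers.

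UMIs were summed over kept cells per library (or per library and cell class, with at least 50 cells) and tested with edgeR 4.0.16 (filterByExpr, TMM, robust quasi-likelihood) in R 4.3.3: 1 fit for the 14 OS libraries, 1 for the 5 ULA libraries, 1 for the 17 libraries with both classes. Cells were read with Python 3.11.15 and scanpy 1.11.5. The code of the tests was run on simulated counts with the same spread for all genes. The genes changed there lay above the levels of OTC, TAT, ARG1 and HPD in most libraries, so that check does not cover these members. DESeq2 1.42.0, other normalizations, filters, class rules, doublet removal with Scrublet (0.8% of cells per 1000 barcodes; doublets were kept otherwise), a replicate block and leaving out each library were the alternatives; the ratio-based class rule and the crossed block were chosen after seeing the data. The members and all gene lists were chosen with earlier results of these data known. Named pathway genes were the 4 largest rises and falls past the threshold per comparison, of which some are not reported here; like genes were the 3 with the highest Pearson correlation of log2(CPM + 1), over genes with a mean of at least 10 CPM. Promoter windows are from RefSeq.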

Additional observations from a re-analysis of the deposited data

Results flagged for a closer look

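For TDO2 the response to OA differed between the 2 cell classes in a test that held 1 OA library, replicate 1. Its log2 fold change in EPCAM-positive cells exceeded that in COL-positive cells by 6.69 ± 0.93 (SE; edgeR adjusted p = 0.00364), from levels of 8.07 and 2.86 CPM in EPCAM-positive control cells and 86.0 CPM in those of OA replicate 1, against 454 and 469 CPM and 98.5 CPM in COL-positive cells. For ASS1 the difference was 2.94 ± 0.81 (edgeR adjusted p = 0.0457), with 5 ASS1 UMIs in the COL-positive cells of that library. Over all genes the median of this class difference was 0.757, so a typical gene also lay above 0. The errors and p-values hold no spread between OA libraries and take it from the other groups, since the other OA library had 38 COL-positive cells. In that library TDO2 was at 54.2 CPM in EPCAM-positive and 367 CPM in COL-positive cells, and ASS1 at 41.7 and 29.9 CPM, a narrower class difference for ASS1 (1.39 against 4.04 times) and for TDO2 a COL-positive level 6.78 times the EPCAM-positive one, against 1.15 times in replicate 1. No group here has 4 or more libraries, so none could be searched for an outlying library.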

How the results depend on the processing

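In whole libraries, the 2 TGFB1 calls became 4 with DESeq2, 5 without a low-count filter, 0 without called doublets, 0 under the stricter cell filter (at least 1000 genes, at most 10% mitochondrial UMIs) and 0 to 0 with 1 library left out; the single call of OA control against untreated became 0 with DESeq2 (which gave OTC no adjusted p), 0 in a fit of those groups alone, 0 under the stricter filter and 0 to 1 with 1 library left out; and the 4 ULA calls became 1 to 6 with 1 library left out. In EPCAM-positive cells, the single TGFB1 call became 2 with DESeq2, 3 without the filter, 3 with classes set by the ratio of marker UMIs, 0 without called doublets and 0 to 0 with 1 library left out. The single ULA call became 3 by ratio, 2 without the filter and 1 to 2 with 1 library left out, and the 0 calls of OA control against untreated became 1 by ratio and 2 without the filter. The 5 class calls became 3 under the stricter filter. The 2 differences between classes for OA became 1 to 2 with 1 library left out, and the 0 for ULA became 1 by ratio and 0 to 1. With DESeq2 in whole libraries, 26% of all genes passed for TGFB1 and 5.1% for OA control against untreated, beside 22.1% and 0.444% with edgeR. For the filter, class, doublet and leave-out alternatives no share over all genes was taken, so those counts have no background. The cause of these moves was not tested. Where leaving out a library left a group with 1, its spread was taken from the other groups of the fit. OA calls numbered 4 to 5 with 1 library left out, from 5 in whole libraries and 6 in EPCAM-positive cells.

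The ASS1 class difference (0.15) turned to -0.18 by ratio, -0.14 under the stricter filter and -0.17 without OA replicate 1, and ran up to 0.24 with other libraries left out. The CPS1 response to OA in whole libraries (-0.06) turned to 0.11 under the stricter filter and ran from -2.15 to 0.76 with 1 library left out (without OA replicates 1 and 2), passing through 0.0012 without OA control replicate 2. In EPCAM-positive cells (-0.21) it turned to 0.50 under that filter and ran from -2.58 to 0.66, with 0.40 without OA control replicate 2. Thinned to 500 UMIs in place of 1000, mean shares went from 4.75% to 2.61% for TDO2 and from 4.06% to 2.00% for ASS1 in EPCAM-positive OA cells, and from 22.8% to 13.97% for TDO2 in COL-positive control cells, as fewer UMIs per cell must give. Single member values were counted for the results called in the main fits and for some others given in the text. Of these values under an alternative, 340 stayed on their side of the threshold with their direction, 58 lost the threshold, 5 gained it and 9 changed sign. Refits in which a member was not tested or had no adjusted p are not among the 58.

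The labels do not say that equal replicate numbers mark a shared origin. Same-numbered libraries deviated from their group means with a correlation of -0.558 for TGFB1, 0.168 for PA, 0.0348 for OA, -0.672 for OA control and untreated, and -0.210 and -0.265 for ULA. With the replicate block the calls in whole libraries became 0 for TGFB1, 0 for OA control against untreated and 0 for ULA, and in EPCAM-positive cells 0 for TGFB1. The 6 OA calls in EPCAM-positive cells became 4, without ASL (adjusted p = 0.0542) and NAGS (0.0661). With numbers crossed, they were 1 for TGFB1 and 0 for OA control against untreated. Depth limits ARG1, HPD and TAT, whose counts outside a few libraries are at or near the floor of 3 UMIs.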
